A study of Mus musculus with 12 samples.

Results

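The genes described here encode potassium, sodium, calcium and HCN channels and their subunits. They are the 138 protein-coding mouse genes, of 21896 with coordinates in the RefSeq annotation of GRCm38, whose symbol begins with Kcn, Scn and a digit, Cacn, or Hcn and a digit. The symbol rule takes in channels that are not gated by voltage in the strict sense, such as the inward rectifiers (Kcnj), the two-pore leak channels (Kcnk), Ca2+-activated K+ channels and the Cacng subunits that accompany AMPA receptors, so "voltage-gated" covers only some of the members.

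The RNA came from N2A cells, a mouse neuroblastoma line, with Flp-in constructs for Puf60 including exon 5, Puf60 lacking exon 5, or Rbm38. Per the labels, 1 µg/ml doxycycline induced each protein before UV crosslinking at 150 mJ/cm2. Induction lasted 48 h in the 3 CLIP libraries of Puf60 with exon 5, and 24 h in the 3 CLIP libraries of Puf60 without exon 5, in the 3 of Rbm38 and in the size-matched input of each protein (1 each). The effect of the isoform and that of the induction time cannot be told apart. For Puf60 with exon 5, the same holds for every fold of CLIP over input, since its CLIP libraries and its input differ in induction time. Every protein was expressed from an introduced construct and recovered with an anti-Flag antibody, and the labels do not say whether the replicates were separate cultures.

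iCLIP recovers the short RNA fragments that UV light has joined to a protein, and the input shows which fragments were abundant in the lysate. The authors deposited, for each protein, 1 table of RNA clusters, mostly 50 nt wide, each with a p-value, its adjusted form and the log2 fold of CLIP relative to input. The tables hold no value for a single library and no read depth, so the values below are the authors' own and carry no SD or n of libraries. A cluster is called enriched here where the deposited adjusted p was under 0.05 and the log2 fold above 0.

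Voltage-gated channels are built from a pore-forming alpha subunit, with auxiliary subunits that set its trafficking and gating. Na+ channels carry the upstroke of the action potential, K+ channels repolarize the membrane, Ca2+ channels couple depolarization to Ca2+ entry, and HCN channels open on hyperpolarization. Many of these genes are very long, and their transcripts are extensively spliced in neurons. Puf60 is a splicing factor that prefers U-rich RNA and works beside U2AF where introns end. Rbm38, a target of p53, is an RNA-binding protein known to bind mRNA 3′ untranslated regions and to affect splicing.

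Clusters were placed by strand. Start positions repeat every 50 nt with 2 offsets, and the offset matched the strand of the gene at 93.9%, 94.2% and 94.7% of clusters lying in 1 gene of known strand in the tables of Puf60 with exon 5, Puf60 without exon 5 and Rbm38. Strand was known for 101 members from RefSeq start sites and for Kcnq1 from its antisense RNA Kcnq1ot1. For 3 others, among them Kcnk3, it was inferred from their own clusters, and for the other 33 members it was unknown. Without those 3 genes the enriched clusters given next would be 41, 30 and 65.

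On the strand of the channel genes, the authors' deposited tables listed 108 clusters for Puf60 with exon 5, 87 for Puf60 without exon 5 and 159 for Rbm38. For Puf60 with exon 5, 44 of these (40.7%) were enriched, against 39.3% of all clusters tested and 39.8% of sense clusters in protein-coding genes. For Puf60 without exon 5 it was 32 of the 86 with a p-value (37.2%), against 36.2% and 36.9%. For Rbm38 it was 71 of 159 (44.7%), against 51.2% and 52.5%. With Kcnq1 counted, the channel genes' shares thus lay close to the whole table for both Puf60 isoforms and somewhat below it for Rbm38. The median log2 fold of the enriched channel clusters was 3.48, against 2.89 over all enriched clusters, for Puf60 with exon 5. It was 3.90 against 2.80 for Puf60 without exon 5, and 2.10 against 2.33 for Rbm38.

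Kcnq1 weighs heavily in these counts. It held 23 of the 71 enriched Rbm38 clusters, 6 of the 44 of Puf60 with exon 5 and 1 of the 32 of Puf60 without exon 5. Without Kcnq1, 38, 31 and 48 enriched clusters remained. The enriched share was then 44.2% of 86 listed clusters for Puf60 with exon 5, against 39.8% of sense clusters in protein-coding genes. For Puf60 without exon 5 it was 52.5% of the tested ones among 60, against 36.9%, and for Rbm38 35.8% of 134, against 52.5%. Leaving out this 1 gene thus put the share of Puf60 without exon 5 above that of all genes and that of Rbm38 further below it.

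Of the 138 members, 60 (43.5%) had a cluster of any kind, against 41.3% of the 21896 genes. Of the 105 members of known strand, 39 (37.1%) had a cluster on their own strand and 35 (33.3%) an enriched one, against 37.1% and 31.3% of 17491 protein-coding genes of known strand. By table, 20 of the 105 (19.0%) were enriched for Puf60 with exon 5, against 16.5% of those genes, 18 (17.1%) for Puf60 without exon 5, against 16.6%, and 25 (23.8%) for Rbm38, against 25.3%. The members' shares were thus near those of all genes. Another 4 (Hcn2, Kcnip3, Kcnk7 and Kcnq5) had sense clusters of which none was enriched, 12 had clusters only on the opposite strand, 9 were of unknown strand, and 78 had no cluster. All counts of sense clusters below leave out the members of unknown strand, although 3 of these, Cacna2d4, Cacng4 and Scn3b, had enriched clusters on both strands in 1 table and so an enriched sense cluster whichever strand is theirs. Members with a cluster known to be sense were longer, with a median gene body of 94104 nt, against 32507 nt for all other members, those of unknown strand included. Whether a member without clusters was unbound or too little transcribed in N2A cells was not tested, since the tables give no RNA level.

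**Figure D1:**
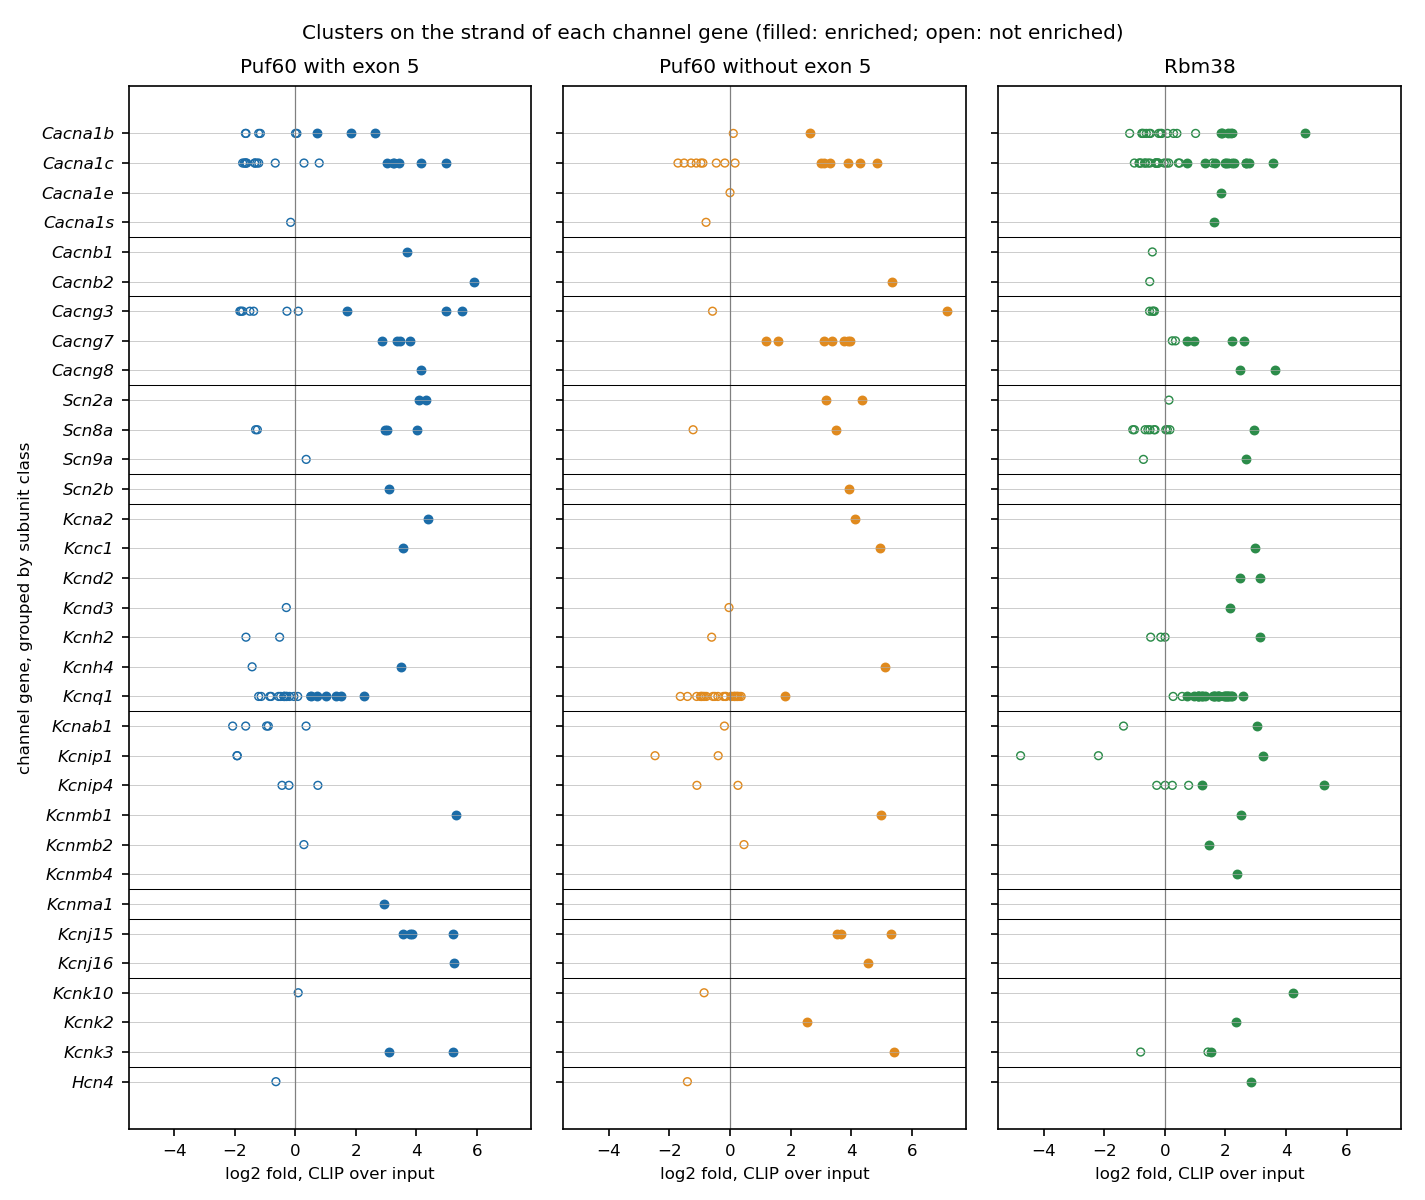
Each point is 1 cluster on the strand of a channel gene, with its deposited log2 fold of CLIP over input on the horizontal axis and 1 panel per protein; genes are rows, grouped by subunit class between the black lines. Of the genes with an enriched cluster 33 are drawn, and the Cacnb, Kcnj, Scn2a and Scn2b rows hold filled points for Puf60 but none for Rbm38, whereas the Kcnd, Kcnip and Hcn4 rows hold them for Rbm38 only.

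Enriched sense clusters of either Puf60 isoform fell in 21 members and those of Rbm38 in 25, with 11 members (10.5% of 105) in both groups, against 13.5% of the 17491 genes. The shared members included the Ca2+ channel pores Cacna1b and Cacna1c, the Na+ channel Scn8a and the K+ channels Kcnc1 and Kcnq1. Another 10 members (9.52%, against 6.00% of all genes) were enriched for Puf60 and not for Rbm38 (Cacnb1, Cacnb2, Cacng3, Kcna2, Kcnh4, Kcnj15, Kcnj16, Kcnma1, Scn2a and Scn2b). For Rbm38 and neither Puf60 isoform there were 14 (13.3%, against 11.9%), among them Cacna1e, Cacna1s, Hcn4, Kcnab1, Kcnd2, Kcnd3, Kcnh2, Kcnip1, Kcnip4, Kcnk10, Kcnmb2, Kcnmb4 and Scn9a. These are counts of calls, and the difference between proteins was not tested. The subunit class counts below run over all members of a class, including those of unknown strand, whose clusters could not be counted as sense. Beside them, 37.1% of all genes of known strand had a sense cluster and 31.3% an enriched one, 19.5% for either Puf60 isoform and 25.3% for Rbm38.

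Among the Ca2+ channel pores, 4 of the 10 alpha1 genes had clusters known to be sense. Cacna1c, which encodes the L-type pore CaV1.2, was among the members with the most enriched clusters: 6 of 18 listed for Puf60 with exon 5, 6 of 15 for Puf60 without exon 5 and 12 of 32 for Rbm38. Its gene body spans 610145 nt of chromosome 6 on the minus strand, and the enriched clusters of Puf60 and of Rbm38 occupied separate stretches of it, although clusters that were not enriched were interspersed.

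All enriched Puf60 clusters of Cacna1c, of either isoform, lay within a stretch of 115150 nt (chr6:118637836-118752985), 50671 to 165721 nt from the 3′ end. In the authors' deposited tables their log2 folds ran between 3.02 and 4.99 with exon 5, and between 3.004 and 4.86 without it. In that stretch the authors' deposited table for Rbm38 listed 1 cluster, at -0.55. Of its 12 enriched clusters, 3 lay on the 3′ side, 6021 to 42971 nt from the 3′ end, with log2 folds between 2.02 and 3.56 in the authors' deposited table. The other 9 lay on the 5′ side, 375621 to 458771 nt from the 3′ end, at log2 folds of 0.72 to 2.79. On that 5′ side the authors' deposited tables listed 11 clusters with exon 5 and 8 without it, of which 0 were enriched, with log2 folds of at most 0.79 and 0.17. A deposited adjusted p is given for each cluster and not for this separation, which is a description of 1 gene.

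**Figure D2:**
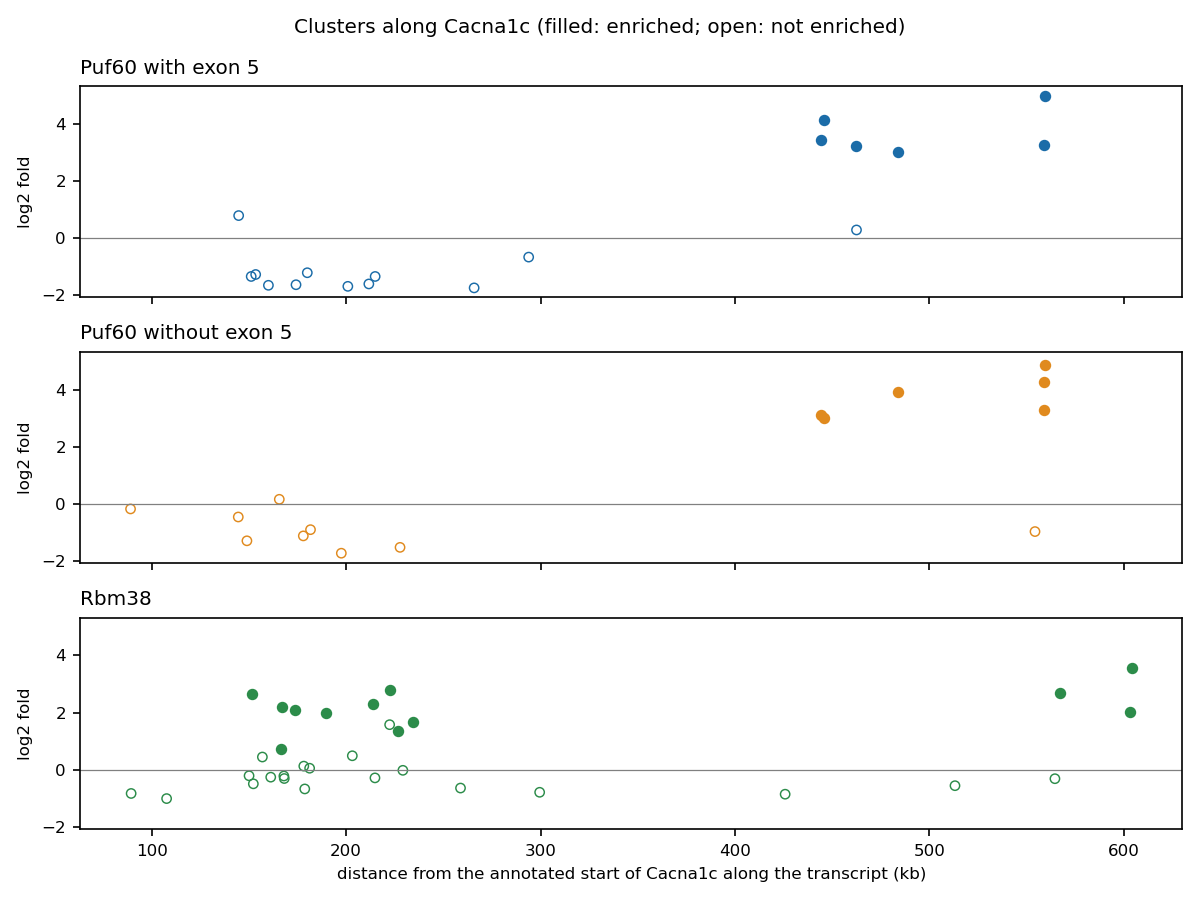
Deposited log2 folds of CLIP over input of the Cacna1c sense clusters are plotted against distance from the annotated start in kb, with 1 panel per protein and filled points for enriched clusters. The 6 enriched Puf60 clusters of each isoform lie in 1 stretch toward the 3′ end, while 9 of the 12 enriched Rbm38 clusters lie nearer the start.

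Cacna1b encodes the N-type pore CaV2.2, which triggers transmitter release. Its strongest cluster came from Rbm38, at 4.62 on the log2 scale in the authors' deposited table (chr2:24604886-24605085, adjusted p = 1.01e-170), and lay 1126 nt from the 3′ end. No Puf60 cluster was listed there. Upstream, at chr2:24697336-24697385, the authors' deposited tables gave 1.84 for Puf60 with exon 5 and 2.64 for Puf60 without exon 5. Further upstream, Puf60 with exon 5 had its strongest cluster of the gene, at 2.63 (chr2:24702586-24702635). An enriched Rbm38 cluster lay close to it, at 2.20 (chr2:24702686-24702735), in the authors' deposited tables. Cacna1e, an R-type pore, and Cacna1s, the skeletal muscle pore, each had 1 enriched cluster, both for Rbm38, at 1.86 and 1.63 in the authors' deposited table.

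Both beta subunit genes with sense clusters were enriched on their own strand for Puf60 and not for Rbm38. Cacnb2, a cytoplasmic beta subunit that brings the pore to the membrane, had the highest fold of all channel clusters of Puf60 with exon 5. At chr2:14737551-14737600 the authors' deposited tables gave log2 folds of 5.91 for Puf60 with exon 5, 5.34 for Puf60 without exon 5 and -0.50 for Rbm38. The same interval was thus enriched for both isoforms and below input for Rbm38. Cacnb1, the beta subunit of skeletal muscle, had an enriched cluster only with exon 5, at 3.68 in the authors' deposited table. None of the 4 alpha2delta genes had a cluster known to be sense, but Cacna2d4, of unknown strand, had enriched Rbm38 clusters on both strands, at 2.05 and 2.22 in the authors' deposited table, so 1 of them is on its own strand.

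Of the 8 Cacng genes, 3 of known strand were enriched. Cacng4, of unknown strand, had enriched clusters on both strands in the authors' deposited table for Puf60 without exon 5, at 3.43 and 4.12, so 1 of them is on its own strand too. Cacng3, a TARP subunit of AMPA receptors, carried the highest fold of any channel cluster. In the authors' deposited table for Puf60 without exon 5 it reached 7.17 (chr7:122691351-122691650, adjusted p listed as 0). With exon 5 the same interval was split into 2 enriched clusters, at 5.51 and 4.98 in the authors' deposited table. The Rbm38 clusters of Cacng3 were not enriched.

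In Cacng7, another TARP, every listed Puf60 cluster was enriched, 4 of 4 with exon 5 and 7 of 7 without it, and 4 of 6 for Rbm38. Puf60 clusters lay at both ends of its 36195-nt body. At chr7:3332501-3332550, near the start, log2 folds were 3.78 with exon 5 and 3.89 without it in the authors' deposited tables, and no Rbm38 cluster was listed. Near the 3′ end the order along the RNA differed. The strongest Puf60 clusters there, 696 and 721 nt from the end, had log2 folds of 3.38 with exon 5 and 3.96 without it, against 0.97 for Rbm38, in the authors' deposited tables. Nearer the end, at chr7:3367651-3367700 and chr7:3368101-3368150, only Rbm38 was listed, at 2.60 and 2.21 in the authors' deposited table. Cacng8 had a Puf60 cluster (with exon 5) at 4.15, 4241 nt from the 3′ end, between 2 Rbm38 clusters, at 2.49 and 3.64, which lay 21191 and 316 nt from it, in the authors' deposited tables.

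Of the 10 Na+ channel alpha genes, Scn2a, Scn8a and Scn9a had sense clusters. Scn2a encodes NaV1.2, a channel of immature axons. Its cluster at chr2:65766851-65766900, 572 nt from the 3′ end, had log2 folds of 4.33 with exon 5 and 4.37 without it in the authors' deposited tables. The second, at chr2:65707801-65707850, had 4.10 and 3.17 in the same order, and the only Rbm38 cluster of the gene was at 0.14 and not enriched, in the authors' deposited tables. Scn8a encodes NaV1.6, the main channel of the mature axon initial segment. With exon 5 it had 3 enriched clusters of 5 listed, the strongest at 4.04 (chr15:100983601-100983700) and another at 3.03 (chr15:100968951-100969000), where Rbm38 was at -0.32, in the authors' deposited tables. The third, at chr15:101032251-101032300, had log2 folds of 2.98 with exon 5 and 3.51 without it in the authors' deposited tables, and was the only one enriched without exon 5. Its single enriched Rbm38 cluster lay elsewhere, at chr15:100902501-100902550, with 2.95 in the authors' deposited table. Scn9a, the NaV1.7 pore of peripheral neurons, was enriched for Rbm38 alone, at 2.67. The beta subunit gene Scn2b, a cell adhesion protein that attaches to the pore, had 1 Puf60 cluster at log2 folds of 3.08 with exon 5 and 3.94 without it, in the authors' deposited tables, 1445 nt from the 3′ end. That interval also overlaps the RNA gene Gm10684.

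The voltage-gated K+ pores formed the largest class, with 40 genes, of which 10 had sense clusters and 9 enriched ones, 5 for Puf60 and 7 for Rbm38. Kcnh4, an Elk-type channel, was enriched for Puf60 at 3.50 with exon 5 and 5.11 without it in the authors' deposited tables. Kcna2, a Shaker channel of the axon, was enriched at 4.39 with exon 5 and 4.12 without it in the same tables.

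Other K+ pores were enriched for Rbm38 where Puf60 was not. Kcnh2 encodes the ERG channel of the cardiac rapid delayed rectifier. Its cluster at chr5:24319686-24319735, 122 nt from the 3′ end, had a log2 fold of 3.15 for Rbm38, against -1.63 for Puf60 with exon 5 and -0.61 for Puf60 without exon 5, in the authors' deposited tables. Kcnd2 and Kcnd3 carry the A-type current. Kcnd2 had 2 enriched Rbm38 clusters, at 3.14 and 2.49 in the authors' deposited table, and Kcnd3 had 1 at 2.15, where the Puf60 values were -0.29 with exon 5 and -0.03 without it. Kcnc1, a Kv3 channel of fast-spiking neurons, had both kinds at different places. The authors' deposited tables gave Puf60 log2 folds of 3.55 with exon 5 and 4.96 without it, 6831 and 6856 nt from the 3′ end, and an Rbm38 log2 fold of 2.99 at 181 nt from it.

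Of the 17 auxiliary K+ channel genes, 6 were enriched for Rbm38 and 1, Kcnmb1, for Puf60. The shares of all genes of known strand were 25.3% and 19.5%, and the difference between the proteins in this class was not tested. Kcnip4, a Ca2+-binding partner of Kcnd channels, had the highest Rbm38 fold of all members. At chr5:49411136-49411185, 1021660 nt from the 3′ end of a very long gene, the log2 fold was 5.27 for Rbm38 (adjusted p listed as 0) and, for Puf60 with exon 5, 0.75 and not enriched, in the authors' deposited tables. Kcnip1, of the same family, had an enriched Rbm38 cluster at 3.25 and, at another place, values below input in all tables, at -1.92 with exon 5, -2.48 without it and -4.76 for Rbm38 in the authors' deposited tables. Kcnab1, Kcnmb2 and Kcnmb4 were enriched for Rbm38 at 3.04, 1.45 and 2.40 in the authors' deposited table. Kcnmb1, a beta subunit of the BK channel, lies inside Kcnip1 on the other strand. Its cluster at chr11:33970751-33970850 had log2 folds of 5.32 with exon 5 and 4.97 without it, and the overlapping Rbm38 cluster had 2.53, in the authors' deposited tables. Kcnma1, the BK pore itself, was the only one of 8 Ca2+- or Na+-activated channels with a sense cluster, enriched at 2.93 in the authors' deposited table for Puf60 with exon 5.

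Both inward rectifiers with sense clusters, Kcnj15 and Kcnj16, were enriched for Puf60 at every listed sense cluster and had no sense cluster for Rbm38. Kcnj15 had 4 of 4 enriched with exon 5 and 3 of 3 without it. Around chr16:95257901-95257950 log2 folds were 5.20 with exon 5 and 5.33 without it in the authors' deposited tables, and 2 further places near the 3′ end ran from 3.53 to 3.80. Kcnj16, a Kir5.1 subunit that partners other Kir channels, had log2 folds of 5.26 with exon 5 and 4.55 without it at chr11:111027001-111027050, 943 nt from the 3′ end, in the authors' deposited tables.

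Two-pore channels set the resting potential, and 3 of 14 had an enriched cluster known to be sense. Kcnk6, of unknown strand, had 1 enriched Rbm38 cluster besides. Kcnk3 (TASK-1) was enriched for all proteins at 1 place. At chr5:30623201-30623250 the authors' deposited tables gave log2 folds of 5.22 for Puf60 with exon 5, 5.43 for the overlapping cluster of Puf60 without exon 5, and 1.52 for Rbm38. Kcnk10 (TREK-2) showed the reverse order. At chr12:98445486-98445585 the values were 4.23 for Rbm38, against 0.10 for Puf60 with exon 5 and -0.86 for Puf60 without exon 5, in the authors' deposited tables. Of the HCN channels of known strand, only Hcn4, the main pacemaker channel of the sinoatrial node, was enriched on its own strand, for Rbm38 at 2.83 (adjusted p = 3.89e-24) in the authors' deposited table, 2000 nt from the 3′ end. The nearby Puf60 clusters were at -0.64 with exon 5 and -1.41 without it.

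Among matched clusters, those of Rbm38 and Puf60 that overlap on 1 strand, the members gave 36 pairs with each isoform. With exon 5, 9 pairs were enriched for both proteins, 19 for Rbm38 alone, 4 for Puf60 alone and 4 for neither. Without exon 5, the counts were 5, 22, 3 and 6. Rbm38 alone thus made up 52.8% and 61.1% of member pairs, against 35.6% and 40.9% of 14851 and 16078 pairs over all clusters. Kcnq1 supplied 12 and 16 of these Rbm38-only pairs. Without it, 7 and 6 of 17 pairs were Rbm38-only, from Cacna1s, Kcnd3, Kcnh2, Kcnip4, Kcnk10 and Kcnmb2. Those shares were near the 35.6% and 40.9% of all clusters, so the higher share of the members rested on Kcnq1.

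The 2 Puf60 isoforms were compared at matched clusters. The members gave 55 pairs, of which 27 were enriched with both isoforms, 4 with exon 5 only, 0 without exon 5 only and 24 with neither. In percent these were 49.1, 7.27, 0 and 43.6, against 43.7, 5.48, 4.21 and 46.6 of 20187 pairs over all clusters. All 4 pairs enriched with exon 5 only lay in Kcnq1. Over the 31 pairs enriched in at least 1 table, the difference of log2 folds, with exon 5 minus without, had a median of -0.04 and ran from -1.65 to 1.31. A difference above 1 occurred at 5 pairs (16.1%), against 9.11% of 10778 pairs over all clusters, and one below -1 at 4 (12.9%), against 6.63%. Of the 5 pairs above 1, 2 were enriched with both isoforms, in Cacng7 and Cacna1c, and the rest were in Kcnq1. Pairs of all clusters enriched in neither table spanned -1.19 to 1.48 (central 95%), and 3 of the 31 member pairs (9.68%) fell below that span and 0 above it, against 4.24% and 2.80% of the 10778. The tables give no error for a fold, so these differences could not be tested against the spread between libraries.

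The widest differences upward were in Cacng7, Kcnq1 and Cacna1c. In the authors' deposited tables Cacng7 had 2.88 with exon 5 and 1.57 without it, a difference of 1.31, at chr7:3366901-3367000. Kcnq1 had 1.35 and 0.14 (1.21), and Cacna1c 4.14 and 3.004 (1.14). The widest downward were Cacng3 with 5.51 and 7.17 (-1.65), Kcnh4 with 3.50 and 5.11 (-1.61) and Kcnc1 with 3.55 and 4.96 (-1.40), in the same tables and order. In all 6 of these pairs the 2 tables drew the cluster with different extents, so the folds cover different stretches of RNA. Among the 22 enriched pairs with identical extents, from 13 genes, the median difference was 0.20, with a range of -1.02 to 1.20. The widest downward of these was in Cacna1c, at chr6:118638386-118638435, with 3.26 with exon 5 and 4.28 without it in the authors' deposited tables. The gene thus had pairs beyond 1 in both directions.

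At the level of genes, 17 members (16.2%) were enriched with both isoforms, 3 (2.86%) with exon 5 only (Cacnb1, Cacng8 and Kcnma1) and 1 (0.952%) without exon 5 only (Kcnk2), against 13.7%, 2.84% and 2.92% of all genes. Of the 44 enriched clusters with exon 5, 28 (63.6%) shared bases with one that was enriched without exon 5, and 12 (27.3%) met no listed cluster, against 64.2% and 27.7% of all 14182 enriched clusters. Of the 32 without exon 5, 27 (84.4%) did so with one enriched with exon 5, and 5 (15.6%) met none, against 63.7% and 30.5% of all 14235. A cluster missing from a table has no value there, so the overlap counts include any cluster that fell below the authors' listing criterion, which is not given in the sources used here.

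**Figure D3:**
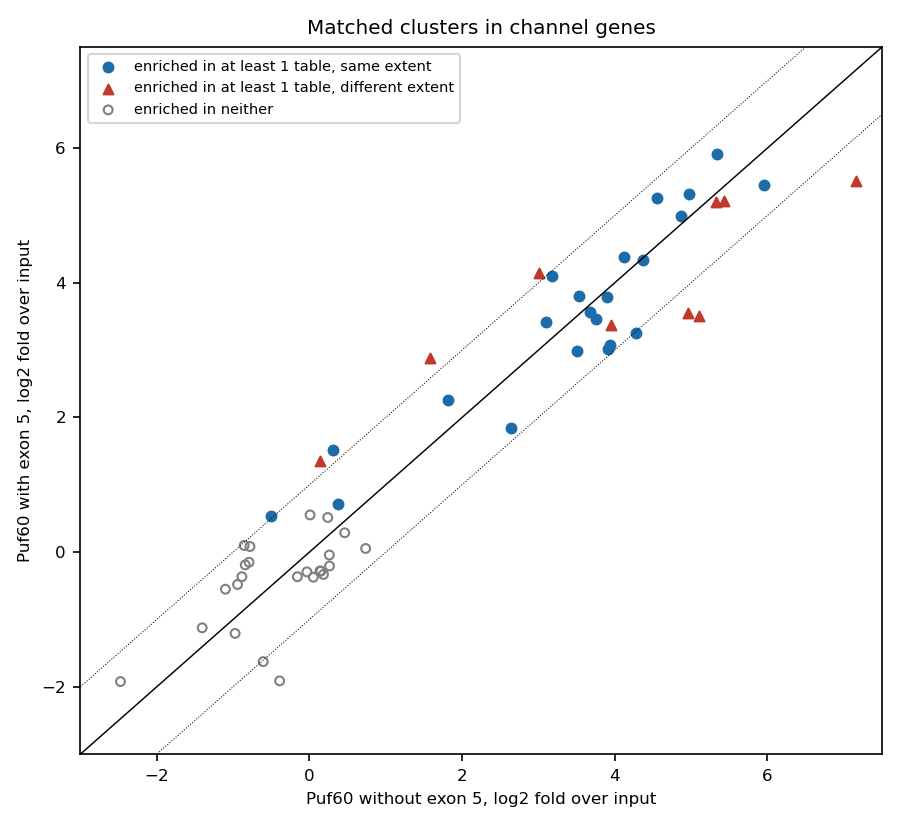
Each point is a pair of matched Puf60 clusters in a channel gene, with the deposited log2 fold over input with exon 5 on the vertical axis and without exon 5 on the horizontal axis; the solid line marks equal folds and the dotted lines a difference of 1. Pairs enriched in at least 1 table follow the line from about 0 to beyond 5, and triangles, whose clusters differ in extent, hold the widest departures, with Cacng3 at 7.17 without exon 5.

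Along the genes, distance was taken from a cluster's centre to the annotated 3′ end. Within 2000 nt of it lay 8 of 44 enriched clusters (18.2%) with exon 5, 7 of 32 (21.9%) without exon 5 and 9 of 71 (12.7%) for Rbm38. Over all protein-coding genes the shares of enriched sense clusters were 15.1%, 15.2% and 43.7%. The Rbm38 share was therefore lower in the channel genes than in protein-coding genes at large, and Kcnq1, with 23 enriched clusters far from its 3′ end, is among the 71. Without Kcnq1 it was 9 of 48, still a lower share than 43.7%. The Puf60 clusters near the 3′ end came from Cacng3, Cacng7, Kcnj15, Kcnj16, Kcnk3, Scn2a and Scn2b. Those of Rbm38 came from Cacna1b, Cacng7, Cacng8, Hcn4, Kcnc1 and Kcnh2, so that Cacng7 was the gene on both lists. No exon annotation was used, so exons, introns and untranslated regions are not told apart.

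**Figure D4:**
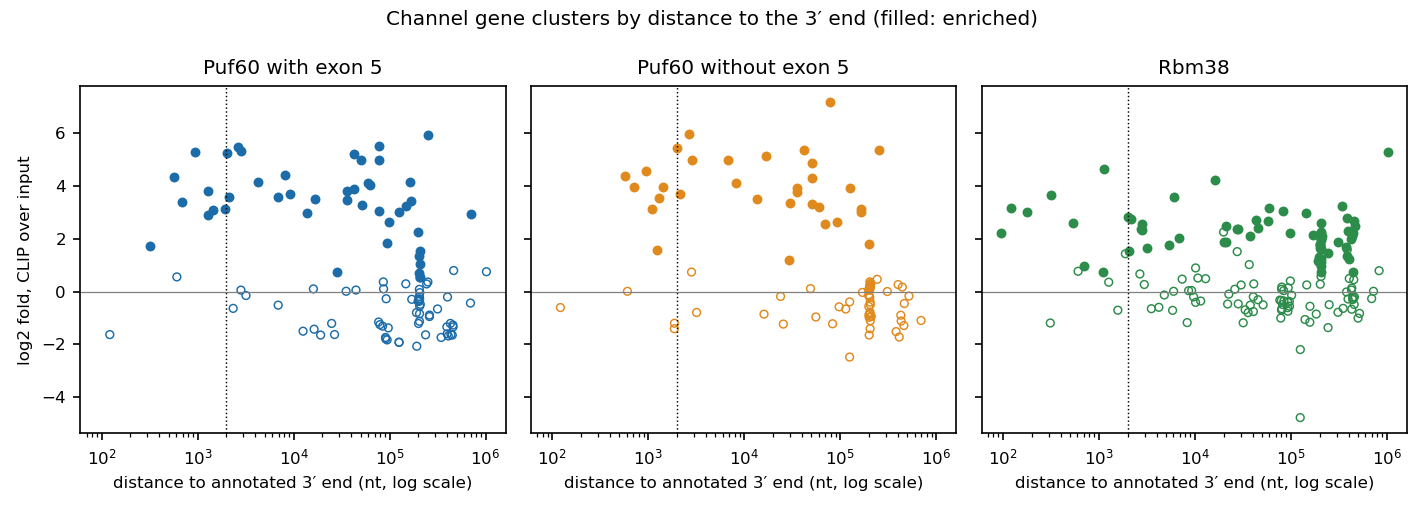
Each sense cluster of a channel gene is placed by its distance to the annotated 3′ end (nt, log axis) and its deposited log2 fold over input, with 1 panel per protein, filled points for enriched clusters and a dotted line at 2000 nt. Most enriched clusters lie to the right of the line, and the dense column of points far from the 3′ end is Kcnq1.

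Kcnq1, a K+ channel of heart and epithelia, lies in an imprinted region and overlaps the antisense noncoding RNA Kcnq1ot1 (chr7:143213111-143296547). Every cluster counted for Kcnq1, on either strand, fell within those bounds. On the strand of Kcnq1 itself, the authors' deposited tables listed 22 clusters with exon 5, 27 without exon 5 and 25 for Rbm38, of which 6, 1 and 23 were enriched. The Rbm38 clusters had log2 folds between 0.72 and 2.58 where enriched, against at most 2.26 with exon 5 and 1.81 without it, in the authors' deposited tables. On the strand of Kcnq1ot1 there were 10, 12 and 14, of which 3, 3 and 4 were enriched. The strongest of these for Puf60, at chr7:143288886-143288935, had log2 folds of 2.91 with exon 5 and 4.23 without it, and 0.65, not enriched, for Rbm38 in the authors' deposited tables.

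Clusters on the opposite strand made up a larger share in channel genes than in the whole tables. Among clusters lying in 1 gene of known strand, 28 of 102 (27.5%) were opposite with exon 5, 52 of 104 (50%) without it and 71 of 189 (37.6%) for Rbm38, against 6.15%, 5.80% and 5.33% over all genes. Kcnj6, which encodes the GIRK2 channel opened by G proteins, supplied 10, 32 and 54 clusters, all opposite, and no sense cluster. Without Kcnj6 the shares were 19.6%, 27.8% and 12.6%. Its clusters spread over 51200 nt in the Rbm38 table, where 22 were enriched with log2 folds of 0.72 to 3.47 in the authors' deposited table, and no other annotated gene overlaps them. The RNA they mark is not named by the annotation used here.

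**Figure D5:**
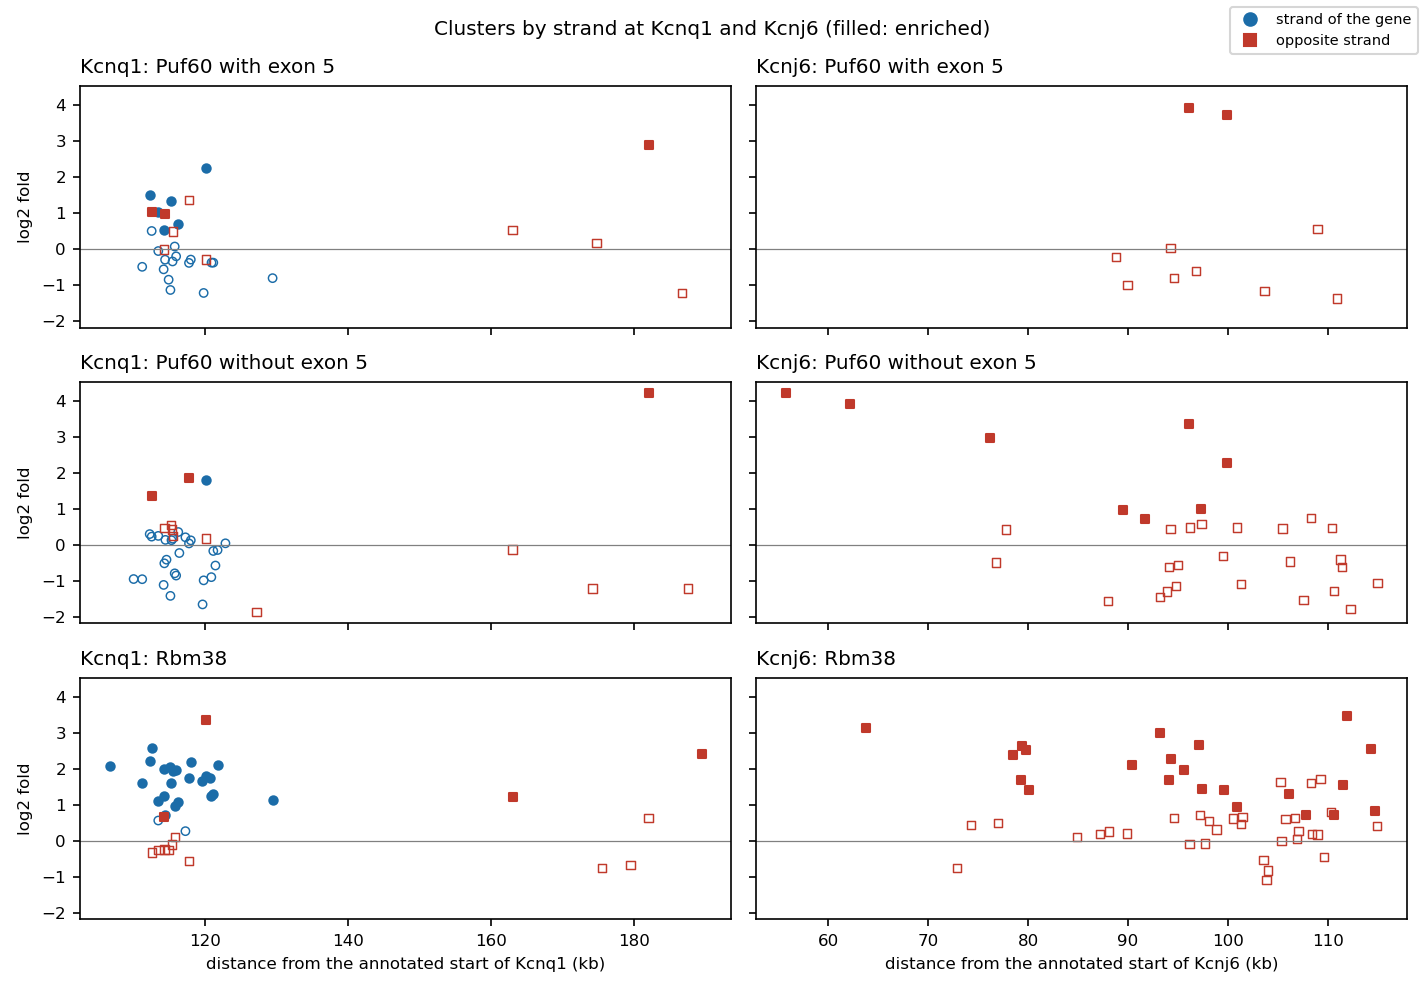
Deposited log2 folds over input are plotted against distance from the annotated start in kb for Kcnq1 (left) and Kcnj6 (right), with 1 row of panels per protein, circles for the strand of the gene, squares for the opposite strand and filled marks for enriched clusters. The sense clusters of Kcnq1 are mostly filled for Rbm38 (23 of 25), and Kcnj6 has squares only.

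Several single opposite-strand clusters were strong. Kcnj2, the Kir2.1 inward rectifier, had one at 6.09 with exon 5 and 6.71 without it (chr11:111074436-111074485) in the authors' deposited tables, higher than any sense cluster of Puf60 with exon 5. Kcnh7 had one at 5.43 with exon 5 and 5.96 without it, and the alpha2delta gene Cacna2d1 one at 5.71 and 5.92, in the same tables and order. Scn1a, the NaV1.1 pore, had one for Rbm38 at 4.32, where Puf60 was at -1.34 with exon 5 and -0.42 without it, in the authors' deposited tables. Since they lie on the other strand, none is counted for these channel genes.

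Members of unknown strand had 8 clusters with exon 5, 11 without it and 11 for Rbm38, of which 4, 5 and 4 were enriched. The beta subunit gene Scn3b had the strongest with exon 5, at 3.54, against 3.89 without it (chr9:40279301-40279350), and Cacng4 the strongest without exon 5, at 4.12, in the authors' deposited tables. The only cluster of Cacna1a, the P/Q-type pore, lay over the small RNA gene Gm23626 and was below input, at -2.86 with exon 5, -3.91 without it and -4.53 for Rbm38 in the authors' deposited tables.

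Proteins that anchor or modify channels were examined from lists chosen for the pathway, counting clusters on either strand where a gene's strand was unknown. For these counts the shares of all genes are the 16.5%, 16.6% and 25.3% given above, for sense clusters only. Of 14 genes of the axon initial segment and Na+ channel complex, 9 had an enriched cluster with exon 5, 8 without it and 5 for Rbm38. Cntnap1, a paranodal adhesion protein whose strand was unknown, reached 6.15 with exon 5 and 5.66 without it, and Nfasc, which holds Na+ channels at the initial segment, 5.43 and 4.95, in the authors' deposited tables. For Rbm38 the strongest were the ubiquitin ligase Nedd4 at 5.01 and the spectrin Sptbn1 at 3.89 in the authors' deposited table. Of 9 K+ channel partners, 3 (Dpp10, Dlg2 and Dlg4) were enriched in each table. Dpp10, which speeds Kcnd channels, had 5.69 with exon 5, 6.09 without it and, at another site, 3.45 for Rbm38 in the authors' deposited tables.

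Of the 4 genes of the Na+ leak channel complex, 2, 3 and 3 were enriched with exon 5, without exon 5 and for Rbm38, led by the scaffold gene Unc79 at 5.23 with exon 5 and 4.49 without it in the authors' deposited tables. Of 13 Ca2+ channel partners, 5, 5 and 6 were enriched, with 7 of the 13 of unknown strand. Rims2, which organises release sites and is one of these 7, held 43 of the 50 enriched clusters of the list with exon 5. Rimbp2, which ties Ca2+ channels to release sites, had 5.16 with exon 5 and 5.77 without it, and the calmodulin gene Calm2, of unknown strand, led for Rbm38 at 4.67, in the authors' deposited tables. The labelled cell type was checked the same way. These counts are of listed clusters, enriched or not. Of all 21896 genes 41.3% had one on any strand in any table, a wider count than those by table here. Of 12 neuronal and neuroblastoma markers, 7, 6 and 6 had a listed cluster, among them Hand2, Ret and Gap43. Of 4 astrocyte markers 0, 0 and 2 were listed, of 4 oligodendrocyte markers 1, 1 and 1, of 3 immune markers 0, 0 and 1, of 3 endothelial markers 1, 1 and 1, and of 3 fibroblast markers 0, 0 and 1, so that a listed cluster alone does not mark a cell type here.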

How the data were processed

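iCLIP of the Flag-tagged proteins in N2A cells gave 12 libraries, 3 of CLIP and 1 of input for each protein, per the labels. The submitters' processing notes name TopHat, edgeR, NCBIM37 and mm10, with no versions or roles. The authors deposited 3 tables, which give each cluster a p-value, its adjusted form and a log2 fold (read as CLIP relative to input), per the file headers. No table holds values per library, so no count test, error or depth could be had, although one had been planned. How clusters were called and adjusted is not given in the sources used here, and 3, 2 and 12 sense clusters in channel genes had a low p-value beside an adjusted p of 1.

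Clusters were assigned by their centre to RefSeq gene bodies of GRCm38 (Python 3.11.15, pandas 2.3.3), on the strand read from the start offset, and 33 members had no known strand. Clusters of different tables were matched by mutual best overlap of at least 1 nt. Clusters without a p-value stayed out of tested counts. Matching and adjustment were tested on simulated data. A split by exon and intron and a printing of cluster sequences were not made, for want of exon coordinates and a genome here.

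The members and lists were chosen with earlier results of these data known. Named genes were the 6 highest folds and the 5 with most enriched clusters per table, the 5 widest isoform differences in each direction, the member with the smallest p of each subunit class, and 3 members of each partner list. Other members named (Kcna2, Kcnd2, Kcnd3, Kcnh2, Scn9a, Kcnab1, Kcnmb2, Kcnmb4, Kcnk2, Cacna1e, Cacna1s and those in the strand paragraphs) were chosen after their values were seen, as was the Cacna1c stretch. Some members are counted but not reported here by name. Alternatives concerned thresholds, strand, gene overlap, matching and distance.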

Additional observations from a re-analysis of the deposited data

Results flagged for a closer look

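Enriched clusters on the strand opposite to a channel gene lie outside the sense cluster counts of the report, except where Kcnip1 and Kcnmb1 overlap on opposite strands. There a cluster opposite to one gene is counted as a sense cluster of the other. With that overlap included, the tables hold 20 enriched opposite-strand clusters for Puf60 with exon 5, 26 for Puf60 without exon 5 and 41 for Rbm38. Kcnj6 alone accounts for 2, 8 and 22, where no other annotated gene overlaps them, and the RNA behind them was not identified. The opposite-strand clusters were singled out because signal was seen in clusters that, apart from that overlap, no count of sense clusters uses.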

How the results depend on the processing

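Of 65 alternative values, 50 stayed within 1.5 times of the reported count and 15 did not. Counting clusters on either strand gave 67, 62 and 114 enriched clusters for Puf60 with exon 5, Puf60 without exon 5 and Rbm38, and 36 and 33 channel genes for the Puf60 isoforms. Requiring 2 enriched clusters per gene left 9, 4 and 9 genes, fewer by construction. With clusters in 1 annotated gene only, Rbm38 had 40, since that setting leaves out Kcnq1 among others. Pairs enriched with both isoforms gave 2 differences above 1 in place of 5. Within 1000 nt of the 3′ end lay 4 and 3 enriched Puf60 clusters with and without exon 5, and within 5000 nt 13, 11 and 15 for the proteins. No paired analysis was possible because the tables hold no value for a single library, and for the same reason no replicate could be left out and no block by replicate number was run. The split by exon and intron was not run. Leaving out Kcnq1 or Cacna1c was chosen after seeing the data. Many clusters shared their exact log2 fold and p-value with another cluster of the same protein. For Puf60 with exon 5, Puf60 without exon 5 and Rbm38 these were 26 of 44, 20 of 32 and 50 of 71 enriched channel clusters. Among those not enriched they were 56 of 64, 46 of 55 and 85 of 88. Whether such clusters rest on few reads was not tested. Read depth is unknown, so a gene with no cluster cannot be told apart from one with too few reads.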
